A study of Mus musculus with 12 samples.

Results

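The late step of the cytoplasmic response to low oxygen, from 2 h to 24 h of hypoxia, was followed for all 350 miRNAs of the table in C166 cells, an established endothelial line from mouse yolk sac. All 350 of the 350 miRNAs were compared, with no selection by value, in 4 of the 12 libraries: 2 cytoplasmic libraries after 2 h and 2 after 24 h in a chamber at 1% oxygen. The other libraries were 2 cytoplasmic libraries of control cells kept in normal air (0 h) and 6 nuclear libraries of the same 3 times, and they enter only where named. All cells were of a single line, replicates were separate biological samples according to the study, and equal amounts of RNA went into each library. A level below is therefore relative to the other small RNA of its library and not an amount per cell.

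Small RNA was sequenced, and the value of a miRNA is its read count divided by 1 size factor per library, called the normalized count here. A difference is given on the log2(normalized count + 1) scale as 24 h minus 2 h, fitted with limma over the 6 cytoplasmic libraries. This scale understates the change of rare miRNAs. To be called, a miRNA needed a p under 0.01 after Benjamini-Hochberg adjustment over all 350 and a difference of at least 2-fold. With 2 libraries at each time, an exact permutation of any single miRNA cannot go under a p of 0.333, so each call rests on the spread shared across miRNAs in the fit.

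miRNAs are cut as a duplex from a hairpin, and usually the strand from either the 5′ or the 3′ side (5p or 3p) is loaded into an Argonaute protein while its partner is lost. The loaded miRNA finds messenger RNAs mainly through its seed, bases 2 to 8, and lowers their translation and stability in the cytoplasm. In endothelial cells low oxygen stabilizes the HIF transcription factors, whose best known miRNA target is miR-210, and the miR-221/222, miR-132 and miR-23/27/24 groups are known from vessel growth.

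The mature sequences below were taken from RefSeq (build GRCm38.p6), which matched 301 of the 350 miRNAs, and are written 5′ to 3′ with the seed in capitals. The first set holds the miRNAs called higher at 24 h, and no seed is shared among them.
miR-210-3p: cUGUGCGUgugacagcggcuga
let-7b-5p: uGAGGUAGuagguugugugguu
miR-503-5p: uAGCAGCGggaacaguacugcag
miR-5113: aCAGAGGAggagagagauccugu
miR-5114: aCUGGAGAcggaagcugcaaga

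The second set holds the called falls on which the results turn, led by miR-27a-5p, and includes miR-301a-5p and miR-301b-5p, the only pair with a common seed among the 17 called falls that RefSeq matched.
miR-27a-5p: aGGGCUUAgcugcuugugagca
miR-219a-1-3p: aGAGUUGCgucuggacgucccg
miR-365-2-5p: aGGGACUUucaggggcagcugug
miR-221-5p: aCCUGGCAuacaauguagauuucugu
miR-16-1-3p: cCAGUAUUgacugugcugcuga
miR-301a-5p: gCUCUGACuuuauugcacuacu
miR-301b-5p: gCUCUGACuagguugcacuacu
miR-132-3p: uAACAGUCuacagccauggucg
miR-677-5p: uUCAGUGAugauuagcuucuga

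The third set shows arms of let-7 hairpins, since the 5p arms shown had positive and the 3p arms negative differences (let-7b-5p stands in the first set). The 5p arms carry the seed GAGGUAG and most of the 3p arms the seed UAUACAA.
let-7a-5p: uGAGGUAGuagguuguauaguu
let-7a-1-3p: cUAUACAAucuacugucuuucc
let-7c-5p: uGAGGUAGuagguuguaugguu
let-7c-2-3p: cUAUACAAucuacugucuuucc
let-7e-5p: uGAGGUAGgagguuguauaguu
let-7e-3p: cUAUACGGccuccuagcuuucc
let-7f-5p: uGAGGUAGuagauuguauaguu
let-7f-1-3p: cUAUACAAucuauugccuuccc
let-7b-3p: cUAUACAAccuacugccuuccc
The sequences of let-7a-1-3p and let-7c-2-3p are identical, and their values below come from the same reads or cannot be told apart.

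The cytoplasmic libraries of 2 h held 6635673 and 7283309 reads in these miRNAs and those of 24 h 4708753 and 4809100, so the later libraries were shallower, with no miRNA under 11 reads in any of the 4. The oncogenic miR-21a-5p dominated the libraries, with a share of 56.8% and 57.8% at 2 h against 51.0% and 48.8% at 24 h. The endothelial marker miR-126a-3p was present at normalized counts of 575 and 513 at 2 h and 487 and 476 at 24 h, while miR-126a-5p was not among the 350. Of the miRNAs that mark other cell types, all 4 of smooth muscle and fibroblasts were measured, miR-143-3p at 448740 and 695284 at 2 h, against 3 of 7 of epithelium, 1 of 1 of liver, 1 of 4 of skeletal and cardiac muscle, 1 of 2 of neurons, 1 of 3 of red blood cells and 0 of 3 of white blood cells. The label of the cells as endothelial therefore rests here on 1 low marker beside abundant miR-143-3p, and no other name is given to them.

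From 2 h to 24 h most cytoplasmic miRNAs moved little, and those that passed the test mainly fell. Of the 350 miRNAs, 26 were called (7.43%), 5 of them higher at 24 h (1.43%) and 21 lower (6.0%). The rise of miR-210-3p was the largest change of all, and the falls were led by miR-27a-5p, miR-219a-1-3p, the arms of miR-677, miR-365-2-5p and miR-221-5p. The median log2 difference over the 350 was -0.02, with a median SE of 0.21, and 253 miRNAs (72.3%) stayed within 1.5-fold. Without the fold threshold, 52 had an adjusted p under 0.01 (limma), 14 higher and 38 lower. Libraries of the 2 times did not overlap for 107 miRNAs in the higher direction (30.6%) and 128 in the lower (36.6%), so a lack of overlap was common and all 26 called miRNAs shared it.

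Which miRNAs were called depended on single libraries and on the scaling. Without replicate 2 of the 2 h libraries 12 were called, 10 of them among the 26, and without replicate 1 of the 24 h libraries 15, all among the 26. In each of the 6 fits that left out 1 cytoplasmic library, 9 of the 26 were called again, namely miR-210-3p, let-7b-5p, miR-503-5p, miR-27a-5p, miR-219a-1-3p, miR-365-2-5p, miR-221-5p, miR-301b-5p and miR-16-1-3p. Scaling to the total count moved the median difference of all miRNAs to 0.38 and turned the split of calls to 15 higher and 4 lower, with 9 of the 26 among them. Scaling to that total without miR-21a-5p gave 13 higher and 11 lower at a median of 0.15, and scaling to miR-186-5p, the reference miRNA of the study's RT-qPCR, left 2 higher and 0 lower at a median of 0.19. The excess of falls over rises is thus a statement relative to the size factors of the authors. None of the 26 changed sign under any of these scalings, as the plot of late change under 6 scalings shows. A scaling shifts all miRNAs nearly alike, here by less than the 2-fold by which the 26 were chosen, so no sign could turn.

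**Figure D1:**
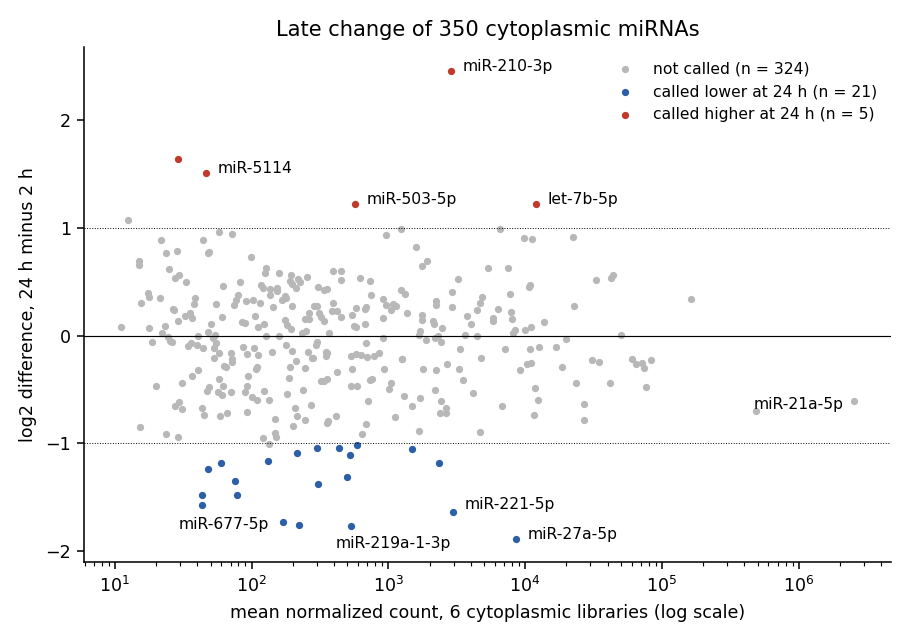
Log2 difference, 24 h minus 2 h, of each of the 350 cytoplasmic miRNAs (points) against its mean normalized count over 6 cytoplasmic libraries on a log scale, with dotted lines at 2-fold. The 5 miRNAs called higher and the 21 called lower lie outside the dotted lines, with miR-210-3p highest at 2.46 and miR-27a-5p lowest at -1.89, and the median of all points is -0.02.

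**Figure D2:**
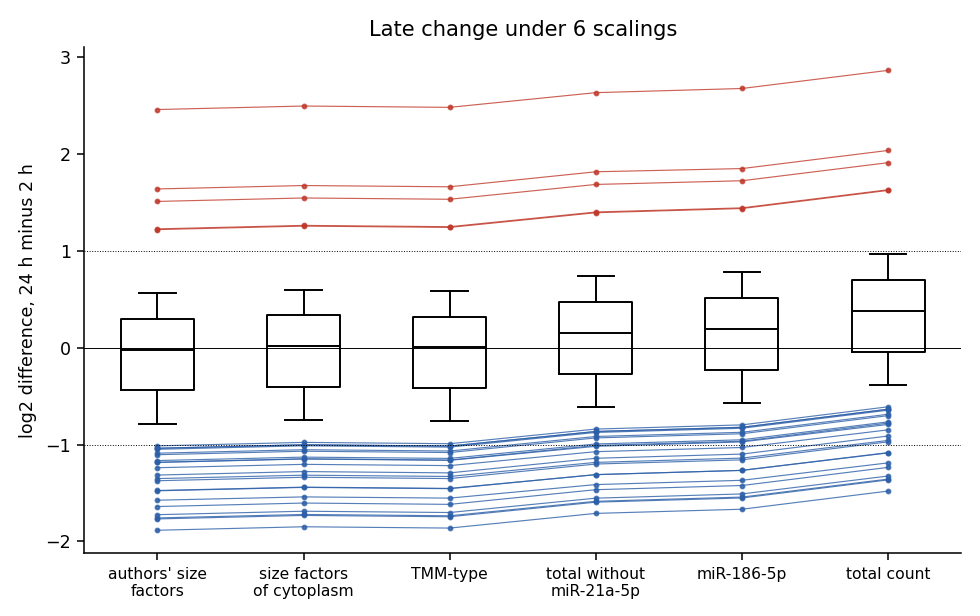
Log2 difference, 24 h minus 2 h, of the 26 called miRNAs (lines, red for higher and blue for lower) under 6 ways of scaling the libraries, beside all 350 miRNAs (boxes are quartiles with the median, whiskers the range from the 10th to the 90th percentile). The median of all miRNAs shifts from -0.02 under the size factors of the authors to 0.38 under the total count. The lines shift nearly alike, by less than 2-fold, and so keep their order and their side of 0.

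miR-210-3p, which HIF induces and which lowers mitochondrial iron-sulfur cluster assembly, was the clearest change. Normalized counts rose from 1143 and 1099 in the earlier libraries to 6154 and 6195 in the later ones. Both later libraries lay far above both earlier ones, and the replicates of each time were close to each other. The rise was 5.51-fold (log2 difference 2.46, SE 0.17, 95% interval 2.105 to 2.82, adjusted p 2.0e-10 in limma), and the miRNA went from 0.0265% and 0.0196% of the reads to 0.158% and 0.174%. The control libraries stood at 1284 and 1206, so the level after 2 h was no higher than in normal air. miR-210-3p lies on chromosome 7 (GRCm38, 141221407 to 141221428, minus strand), in no annotated host gene. Of the 13 listed miRNAs linked to HIF or hypoxia 10 were measured, miR-210-3p was the only call among them, beside 7.43% called of all miRNAs, and their median was 0.30 against -0.02 for all. miR-199b-5p came next, with 808 and 648 at 2 h and 1353 and 1425 at 24 h (log2 difference 0.94, SE 0.18, adjusted p 6.2e-04 in limma), short of 2-fold.

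let-7b-5p, a member of the let-7 family that represses growth genes such as Hmga2 and Lin28, rose from 9032 and 7943 to 20260 and 19237. The 2 times did not overlap, and the rise of 2.33-fold was called (log2 difference 1.22, SE 0.19, adjusted p 6.9e-05 in limma). Its relatives with the same seed moved the same way by less than 2-fold. let-7e-5p went from 5005 and 5175 to 10752 and 9588, a log2 difference of 1.00 (SE 0.18, adjusted p 2.6e-04). let-7a-5p, let-7c-5p and let-7d-5p had log2 differences of 0.90, 0.92 and 0.91, each with an adjusted p under 0.01. let-7i-5p, the most abundant of them, had 133097 and 177888 at 2 h and 202020 and 187556 at 24 h, and its difference of 0.34 (SE 0.23, adjusted p 0.30) did not pass. The 9 miRNAs with the seed GAGGUAG spanned 0.34 to 1.22. All 10 measured let-7 5p arms were positive, with a median of 0.80, and 1 was called higher, beside 1.43% of all miRNAs. Of the 10 arms, 6 had an adjusted p under 0.05 in limma, beside 24 of all 350 miRNAs in the higher direction. The count called higher was 6 under the total, 5 when miR-21a-5p was left out of it and 0 with miR-186-5p. In either direction these scalings called 19, 24 and 2 of all miRNAs. Together the 10 arms took 5.76% and 5.37% of the reads at 2 h and 10.56% and 10.59% at 24 h. Members differ by few bases and the handling of reads that fit several of them is not given in the sources used here, so the split among members is uncertain.

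The other called rises were of rarer miRNAs. miR-503-5p, a relative of miR-16 that lowers cyclins and slows the cell cycle, went from 430 and 358 to 927 and 913, 2.34-fold (log2 difference 1.23, SE 0.19, adjusted p 5.7e-05). Of the 10 measured miRNAs of its cluster on the X chromosome it was the only call, beside 7.43% of all miRNAs, with 8 of 10 positive and a median of 0.38. Its partner arm miR-503-3p had a log2 difference of 0.43 (adjusted p 0.11), and miR-322-5p, a neighbour in that cluster, 0.26 (adjusted p 0.36). miR-5114, whose sequence lies in an exon of Scd2, a fatty acid desaturase gene, rose from 25.5 and 31.3 to 88.2 and 77.0 (log2 difference 1.51, SE 0.29, adjusted p 4.8e-04). miR-5113, within an exon of Tnrc6b, had only 13.1 and 17.8 at 2 h against 50.2 and 49.0 at 24 h (log2 difference 1.64, SE 0.39, adjusted p 0.0030). In both the later libraries were above the earlier ones, though the counts were low.

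**Figure D3:**
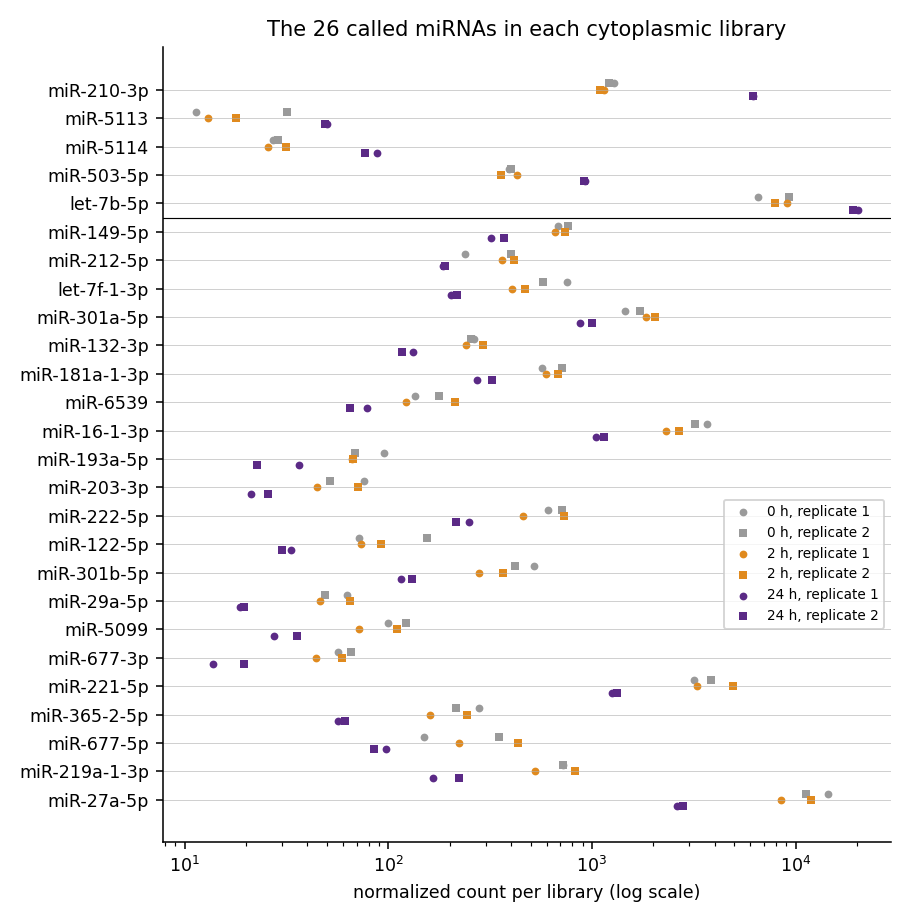
Normalized count (log scale) of the 26 called miRNAs in each of the 6 cytoplasmic libraries, in grey for 0 h, orange for 2 h and purple for 24 h, with circles for replicate 1 and squares for replicate 2. The 24 h points lie apart from the 2 h points in each of the 26 miRNAs, to the right for the 5 above the line and to the left for the 21 under it.

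Among the falls, miR-27a-5p had by far the most reads. It stood at 8442 and 11913 at 2 h and at 2631 and 2798 at 24 h, a fall of 3.70-fold (log2 difference -1.89, SE 0.20, 95% interval -2.29 to -1.48, adjusted p 2.4e-07 in limma). Its partner miR-27a-3p, the arm usually described as the active one, had 11767 and 9422 at 2 h and 9173 and 10198 at 24 h, overlapping between the times, with a log2 difference of -0.12 (SE 0.18, adjusted p 0.64). The hairpin lies on chromosome 8 with those of miR-23a and miR-24-2. Of the 9 measured members of the miR-23/27/24 clusters only miR-27a-5p was called, beside 7.43% of all miRNAs. miR-27b-5p, from the same side of the paralogous hairpin, went from 746 and 795 to 436 and 385 (log2 difference -0.91, SE 0.20, adjusted p 0.0016), while miR-27b-3p (0.01) and miR-23a-3p (0.41) did not pass.

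The miR-221/222 hairpins on the X chromosome, known from endothelial and smooth muscle growth, showed the same contrast between arms. miR-221-5p fell from 3279 and 4944 to 1261 and 1321 (3.12-fold, log2 difference -1.64, SE 0.20, adjusted p 2.2e-06), whereas miR-221-3p had 5264 and 4007 at 2 h and 6893 and 7294 at 24 h (log2 difference 0.63, SE 0.19, adjusted p 0.017). The 5p arm was lower and the 3p arm higher in both later libraries. miR-222-5p fell from 457 and 730 to 249 and 215 (log2 difference -1.32, SE 0.22, adjusted p 1.2e-04), and miR-222-3p lay at 7747 and 8768 and then 7935 and 8842, a difference of 0.02. Of the 18 measured endothelial and vascular miRNAs, 3 were called, all lower (miR-221-5p, miR-222-5p and miR-132-3p), beside 6.0% called lower of all miRNAs, and the median was -0.13.

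miR-132-3p, induced by growth factors in endothelium, and its cluster partner miR-212-5p, both from chromosome 11, fell together. miR-132-3p went from 241 and 290 to 132 and 116 (log2 difference -1.09, SE 0.21, adjusted p 5.3e-04). miR-212-5p went from 361 and 412 to 185 and 190 (-1.04, SE 0.23, adjusted p 0.0015). miR-132-5p, at 184 and 138 and then 76.1 and 89.0, had a difference of -0.94 (adjusted p 0.0069), just under 2-fold. All 3 measured miRNAs of this cluster were lower without overlap in both later libraries, beside 36.6% of all miRNAs. miR-132-3p and miR-132-5p are arms of 1 hairpin.

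Another neighbouring pair on chromosome 11, miR-365-2-5p (start 79726428) and miR-193a-5p (start 79711975), was called lower. miR-365-2-5p fell from 160 and 243 to 56.7 and 61.1 (3.30-fold, log2 difference -1.72, SE 0.24, adjusted p 1.9e-05), while miR-365-3p lay at 122 and 158 and then 165 and 135 (0.11). miR-365-3p is also made from a hairpin on chromosome 16, so its level pools different hairpins. miR-193a-5p went from 66.4 and 66.8 to 36.4 and 22.6 (log2 difference -1.18, SE 0.29, adjusted p 0.0042). The later libraries differed from each other in miR-193a-5p but both lay below the earlier ones.

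miR-301a-5p and miR-301b-5p, the seed pair shown above, come from hairpins on chromosomes 11 and 16 in introns of Ska2 and 2610318N02Rik. miR-301a-5p fell from 1841 and 2036 to 878 and 995 (log2 difference -1.05, SE 0.18, adjusted p 1.9e-04). miR-301b-5p fell from 279 and 367 to 116 and 131 (log2 difference -1.37, SE 0.21, adjusted p 5.7e-05). The partner arm miR-301a-3p overlapped between the times (85.98 and 54.1 against 72.9 and 77.0, log2 difference 0.13). Of the 6 measured miRNAs of the family these 5p arms were the 2 called, beside 6.0% called lower of all miRNAs.

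miR-16-1-3p, from the miR-15a/16-1 hairpins in an intron of Dleu2, fell from 2313 and 2691 to 1048 and 1151 (log2 difference -1.18, SE 0.18, adjusted p 5.0e-05). miR-16-5p, the arm that lowers Bcl2 and cyclins, had 546 and 456 and then 617 and 525, which overlapped (0.19). miR-29a-5p, the partner of the collagen regulator miR-29a-3p, fell from 46.3 and 65.1 to 18.6 and 19.6 (log2 difference -1.47, SE 0.30, adjusted p 7.5e-04), while miR-29a-3p lay at 11448 and 9722 and then 8244 and 9344 (-0.27, adjusted p 0.29). miR-181a-1-3p fell from 596 and 684 to 273 and 322 (log2 difference -1.11, SE 0.20, adjusted p 2.6e-04), while miR-181a-5p had -0.44 (adjusted p 0.077). In these pairs the called arm fell and the log2 difference of its partner did not pass. miR-16-5p and miR-181a-5p are each also made from another hairpin, so their levels pool different hairpins.

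miR-219a-1-3p, from a hairpin on chromosome 17, fell from 527 and 822 to 166 and 223 (3.41-fold, log2 difference -1.77, SE 0.22, adjusted p 2.9e-06). miR-149-5p, from an intron of Gpc1, fell from 657 and 739 to 321 and 371 (log2 difference -1.01, SE 0.19, adjusted p 4.0e-04), just past 2-fold. No partner arm of either was among the 350.

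Both arms of miR-677 fell. Their hairpin lies in an intron of Atp5b, a gene of the mitochondrial ATP synthase, and is annotated as a small nucleolar RNA. miR-677-5p went from 222 and 434 to 97.1 and 85.3 (log2 difference -1.76, SE 0.31, adjusted p 2.4e-04), and miR-677-3p from 43.9 and 59.2 to 13.8 and 19.6 (-1.58, SE 0.30, adjusted p 5.3e-04). The earlier replicates of miR-677-5p were far apart, yet both exceeded the later ones. miR-5099 fell from 71.8 and 110 to 27.5 and 35.5 (log2 difference -1.48, SE 0.27) and miR-6539 from 122 and 213 to 78.5 and 64.9 (-1.17, SE 0.26). Of the 20 measured miRNAs listed as overlapping small nucleolar RNAs or otherwise noncanonical, which did not include miR-677, 1 was called higher and 2 lower, beside 1.43% and 6.0% of all miRNAs, with a median of -0.19.

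A pair of called falls were markers of other tissues at low counts. miR-122-5p, the abundant liver miRNA, went from 73.5 and 92.2 to 33.2 and 30.2 (log2 difference -1.35, SE 0.30, adjusted p 0.0020). miR-203-3p, of skin epithelium, went from 44.5 and 71.1 to 21.05 and 25.7 (-1.24, SE 0.31, adjusted p 0.0046). Both were lower in both later libraries, and the other epithelial markers, miR-200b-3p and miR-200c-3p, had differences of -0.71 and -0.61 without passing. Whether these few reads came from the C166 cells was not tested.

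The 2 arms of hairpins were then set side by side in the cytoplasm, where in some pairs 1 arm is made from several hairpins and its level pools them. Of the 21 called falls, 12 had their partner arm among the 350. Apart from the arms of miR-677, which were both called, the partners spanned -0.94 (miR-132-5p) to 0.63 (miR-221-3p), and 6 of the 12 were positive. The ratio of the less abundant to the more abundant arm, as ordered in the 0 h libraries, does not depend on the scaling of a library, and it was fitted for 100 pairs of arms after the values above had been seen. It was called for 9 pairs (9.0%) at an adjusted p under 0.01 and 2-fold, with the ratio lower at 24 h in 7 and higher in 2. The largest was miR-221, where the log2 ratio of 5p to 3p went from -0.68 and 0.30 to -2.45 and -2.47 (difference -2.27, SE 0.33, adjusted p 0.0058 in limma). The other 6 of the 7 were let-7 hairpins, with differences in the log2 ratio of the 3p to the 5p arm of -1.71 to -1.42. For let-7b the log2 ratio went from -3.70 and -3.14 to -5.12 and -4.97 (difference -1.63, SE 0.29, adjusted p 0.0072). Both later ratios lay below both earlier ones. The 2 pairs in which the ratio rose were miR-27a and miR-365-2, where the 5p arm was the more abundant at 0 h and was the arm that fell.

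These ratio calls were not stable. Leaving out either 0 h library, or the second of the 2 h libraries, left 0 calls. The fit lacking the first 2 h library gave 2, the one lacking the first 24 h library 1 and the one lacking the second 9. Only 4 calls were made among 86 pairs when arms of the same hairpin name alone were used. The let-7c pairs share 1 more abundant arm, and let-7a-1-3p and let-7c-2-3p share a sequence, so these are not separate observations. Over the 100 pairs the less abundant arm had the lower difference in 59, and the median of the difference between arms was -0.12. The 10 measured let-7 3p arms had a median of -0.63, with 8 lower and not overlapping, beside 36.6% of all miRNAs. Only let-7f-1-3p was called, beside 6.0% called lower of all (403 and 467 to 203 and 218, log2 difference -1.04, SE 0.20, adjusted p 5.3e-04). let-7d-3p (0.01) and miR-98-3p (0.18) were the 2 positive ones. As a share of all reads the 3p arms changed little, from 0.208% and 0.170% to 0.159% and 0.189%, which overlapped. Under the 3 other scalings the median of the 5p arms was 0.97 to 1.20 and that of the 3p arms -0.46 to -0.23, so the sign of each median held.

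**Figure D4:**
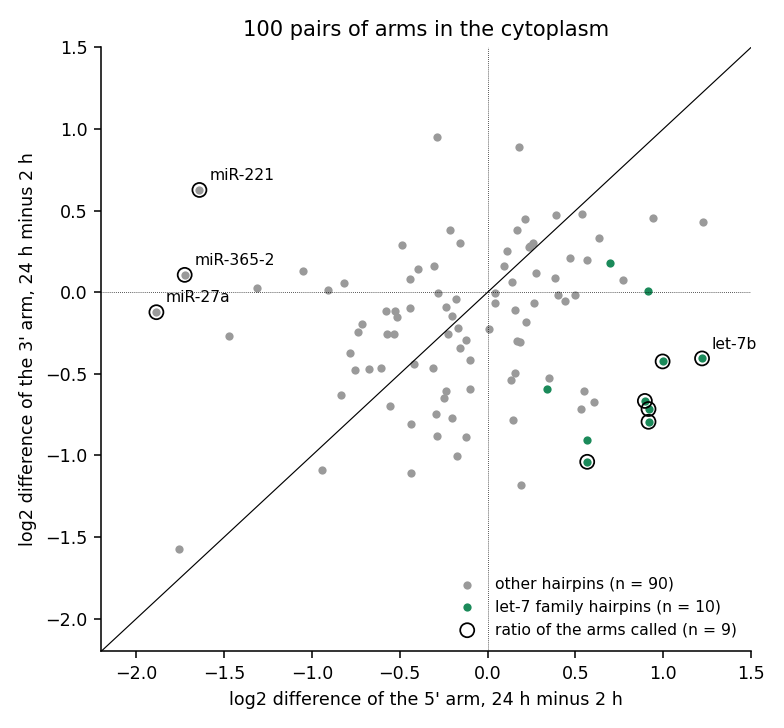
Log2 difference, 24 h minus 2 h, of the 3′ arm against that of the 5′ arm for 100 pairs of arms in the cytoplasm, with let-7 hairpins in green, circles around the 9 pairs whose ratio was called and a line of equal change. The let-7 pairs lie to the lower right of the line, and miR-221, miR-365-2 and miR-27a lie at the left, with the 5′ arm lower.

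Between 0 h and 2 h, which shares the 2 h libraries with the late step, limma called 0 of the 350 miRNAs, with a smallest adjusted p of 0.29 and 39 miRNAs at an unadjusted p under 0.05. The 21 later fallers had log2 differences of -0.60 to 0.44 at 2 h against 0 h and the 5 risers -0.31 to 0.13. These miRNAs were chosen for their change after 2 h, so the contrast with the earlier step is a description. For miR-27a-5p the difference was -0.34 from 0 h to 2 h and -2.23 from 0 h to 24 h, and for miR-210-3p it was -0.15 and 2.31. The comparison of 24 h with 0 h shares the 24 h libraries by which these miRNAs were chosen, so it too is a description. In it, 19 of the 21 and 5 of the 5 were called. The exceptions, miR-212-5p (-0.72, adjusted p 0.016) and miR-301a-5p (-0.76, adjusted p 0.0020), were under 2-fold.

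Whether the late step differed between the cytoplasm and the nucleus was tested as an interaction over all 12 libraries, called at an adjusted p under 0.05 and given as the nuclear minus the cytoplasmic difference. It was called for 47 of the 350 miRNAs (13.4%), 9 of them among the 21 cytoplasmic fallers and 1 among the 5 risers. Fallers and risers were chosen by the cytoplasmic difference that enters the interaction, so those counts are a description. Of the 47, the nuclear difference was the higher for 19 and the lower for 28. Under the total 57 were called (11 and 46), with miR-21a-5p left out of the total 77 (53 and 24) and with miR-186-5p 30 (7 and 23), and leaving out 1 library gave 32 to 66. miR-210-3p rose alike, from 2448 and 1906 to 12744 and 11948 in the nucleus (log2 difference 2.51), and the difference between the fractions was 0.05 (SE 0.22, adjusted p 0.88). It was the only 1 of the 26 that was also called in the nucleus. Of the fallers 16 of 21 were negative in the nucleus too, down to -0.93. limma called 0 of them there at the same thresholds, in a fit that called 29 of the 350. Of the 21, 10 had an unadjusted p under 0.05 in that limma fit. No share over all miRNAs was counted for these 10 or for the 16 negative ones, so neither count is read as a result about the fallers.

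The fallers with a called interaction included miR-677-5p, which stood at 842 and 1513 and then 1781 and 1652 in the nucleus (log2 difference 0.60) and had an interaction of 2.36 (SE 0.50, adjusted p 0.0026). miR-5099 and miR-301a-5p were likewise positive in the nucleus (0.62 and 0.51), with interactions of 2.099 and 1.56. miR-27a-5p and miR-221-5p were negative in both fractions, by -0.79 and -0.41 in the nucleus, and their interactions were 1.09 and 1.24. The nuclear count of miR-27a-5p was only 196 and 161 at 2 h, and that of miR-219a-1-3p 28.8 and 24.9, so the nuclear differences of these arms rest on far fewer reads.

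Several let-7 5p arms had differences of opposite sign in the fractions. let-7a-5p went from 59164 and 48356 to 18466 and 22149 in the nucleus (log2 difference -1.40), against 9260 and 8583 to 17285 and 15907 in the cytoplasm, and the interaction was -2.30 (SE 0.24, adjusted p 3.2e-06). The 2 times did not overlap in either fraction. Of the 10 let-7 5p arms 8 had a called interaction, beside 13.4% of all miRNAs. The nuclear median of the 10 was -0.70 against 0.80 in the cytoplasm, while let-7i-5p (0.05) and let-7j (-0.03) were near 0 in the nucleus. let-7b-5p, the called cytoplasmic riser, had a nuclear difference of -0.17 and an interaction of -1.39 (adjusted p 7.1e-04). The largest interactions belonged to miRNAs with little cytoplasmic change, miR-31-5p and miR-185-5p, whose cytoplasmic differences were 0.16 (6275 and 4865 against 5505 and 6970) and 0.29 (1096 and 984 against 1210 and 1336).

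**Figure D5:**
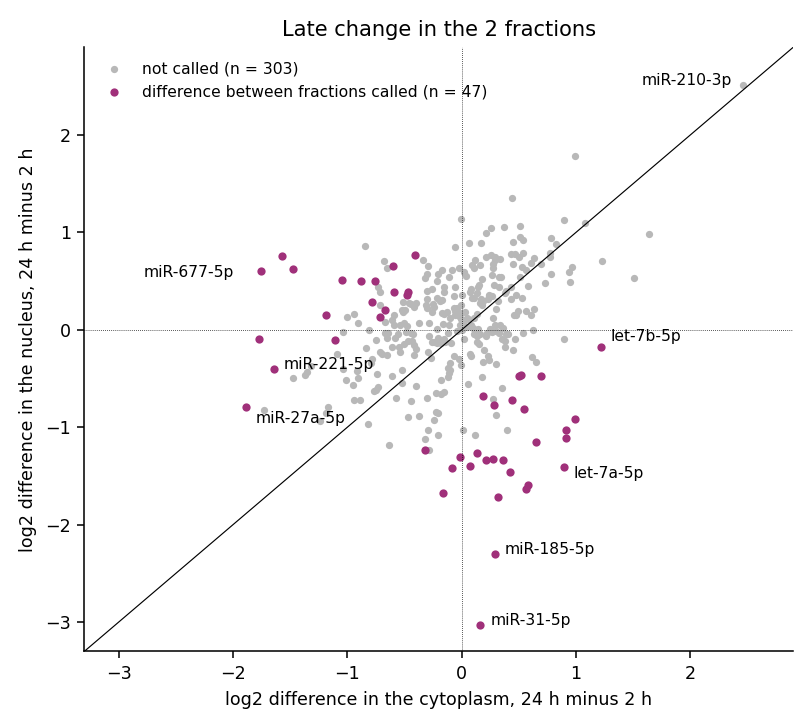
Log2 difference, 24 h minus 2 h, in the nucleus against that in the cytoplasm for 350 miRNAs (points), with the 47 called interactions in purple and a line of equal change. miR-210-3p lies near the line at 2.46 and 2.51, several let-7 5p arms lie to the lower right and several cytoplasmic fallers to the upper left.

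Sequence features were compared without a test. The 17 matched fallers had a median GC content of 50% and a median length of 22 bases, against 47.8% and 22 bases for all 301 matched miRNAs, and 47.1% of them ended in A or U against 54.8%. The 5 risers had a median GC content of 54.5% and a median length of 22 bases, and 80% of them ended in A or U. Apart from the miR-301 pair, no seed was shared by more than 1 of these fallers. Of the relatives of miR-503-5p, the 5 matched ones with the family seed AGCAGCA spanned -0.11 to 0.26. These were miR-15a-5p, miR-15b-5p, miR-16-5p, miR-195a-5p and miR-322-5p. miR-497-5p, listed in the same family but without a matched sequence, had 0.53. In the miR-181 and miR-130/301 families the called arms were those opposite the arm that gives the family its seed, miR-181a-1-3p, miR-301a-5p and miR-301b-5p.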

How the data were processed

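Cytoplasmic and nuclear small RNA of C166 cells was measured in 12 libraries, 2 per fraction and time (0, 2 and 24 h of hypoxia), grouped by the sample titles. The libraries were made with a NEBNext small RNA kit, and the authors used bcl2fastq, Trimmomatic, Bowtie2 2.1.0 against miRBase sequences and DESeq2 (per the labels and the study's methods), and removed miRNAs under 10 reads. The deposited signal values are normalized counts, that is reads per miRNA divided by 1 size factor per library. The table's 30 columns of the authors' own comparisons (fold changes, tests and p-values) were not used. A suffix on 32 miRNA names, which the sources used here do not explain, was read as marking merged entries and dropped.

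Differences were fitted with limma 3.58.1 in R 4.3.3 on log2(normalized count + 1) with a variance trend and Benjamini-Hochberg adjustment over 350 miRNAs, on the 6 cytoplasmic libraries, or on all 12 for the interaction. The code was tested on simulated data. Each value times its size factor was within 0.01 of a whole read, and these reads were tested with limma-voom only. The cytoplasmic libraries held 4708753 to 7787926 reads. The arm ratio was fitted with limma without a trend. Alternatives were a pseudocount of 10, a filter at a mean of 100, other scalings and size factors, no trend, a replicate block, 4 libraries only, other thresholds and leaving out each library. The arm ratio and its alternatives were added after seeing the data. Positions and hosts are from GRCm38 annotation. Python 3.11.15, pandas 2.3.3 and matplotlib 3.10.9 made the tables and figures.

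Named were the 10 called miRNAs with the largest change each way and no overlap, up to 4 members per list with the largest change, miR-210-3p, miR-21a-5p, miR-186-5p and both miR-27a arms, partner arms, the 6 most abundant, and the 5 smallest interaction p. miR-149-5p, miR-212-5p and further partners, list members and let-7 members were named with their values in view. The miRNAs, lists and tests were all chosen with earlier results of these data known.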

Additional observations from a re-analysis of the deposited data

Results flagged for a closer look

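The late step differed between the fractions by the interaction test, at an adjusted p under 0.05, in 23 of the named miRNAs. Over all 350 miRNAs it was called for 47 (13.4%). Some were named for a small interaction p or a large cytoplasmic change, which enter the test, so the 23 is a description. Each value is the nuclear minus the cytoplasmic log2 difference, 24 h minus 2 h. The nucleus moved lower than the cytoplasm for miR-31-5p (-3.20), miR-185-5p (-2.59), let-7a-5p (-2.30), miR-494-3p (-2.18), let-7d-5p (-2.02), let-7c-5p (-1.95), let-7e-5p (-1.92), miR-206-3p (-1.60), let-7b-5p (-1.39) and miR-107-3p (-0.98). The nucleus moved higher than the cytoplasm for miR-677-5p (2.36), miR-677-3p (2.33), miR-5099 (2.099), miR-219a-1-3p (1.67), miR-301a-5p (1.56), miR-16-1-3p (1.33), miR-148a-5p (1.26), miR-221-5p (1.24), let-7b-3p (1.18), miR-27a-5p (1.09), miR-181a-1-3p (1.01), let-7c-2-3p (0.85) and miR-148a-3p (0.83).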

How the results depend on the processing

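The count of 26 called miRNAs was 18 to 27 under the alternatives not named next, including limma-voom (26). It was 2 when scaled to miR-186-5p, 52 at any fold, and 12 to 32 when a library was left out. The 47 interactions became 77 (53 higher and 24 lower in the nucleus) under the total less miR-21a-5p, 30 with miR-186-5p, 30 at an adjusted p under 0.01, and 32 to 66 when a library was left out. The total gave 57 (11 and 46), against 19 and 28 under the size factors of the authors. The 9 arm ratios became 4 with arms of the same hairpin name, 17 at an adjusted p under 0.05, and 0 to 9 when a library was left out. Deviations of same-numbered libraries correlated at -0.197 (cytoplasm 2 h and 24 h), -0.225 (0 h and 24 h), 0.319 (0 h and 2 h), -0.177 (nucleus 2 h and 24 h) and 0.067 to 0.239 between the fractions. The main fits did not pair libraries by number, though with 2 libraries per group these values cannot exclude pairing. The study split cells into the 2 fractions, and no fit paired the fractions of a culture. The replicate block gave 27 called, 48 interactions and 18 arm ratios. None of the 26 called miRNAs changed sign, though under the scalings none could. Under the total the sign turned for uncalled miR-125a-3p (0.22), miR-148b-5p (0.0059), miR-186-5p (0.19), miR-20a-5p (0.088), miR-27a-3p (0.28), miR-29a-3p (0.14), miR-29c-3p (0.37), miR-30a-5p (0.18), miR-30d-5p (0.11), miR-34a-5p (0.24), miR-34b-3p (0.099) and miR-9-5p (0.077). Without miR-21a-5p in the total it turned for miR-27a-3p (0.052), miR-29c-3p (0.15) and miR-34a-5p (0.014). With miR-186-5p it turned for miR-125a-3p (0.033), miR-27a-3p (0.095), miR-29c-3p (0.19) and miR-34a-5p (0.057). miR-29c-3p also turned with size factors within the fraction (0.020) and with TMM-type factors (0.0074). When a library was left out, the sign turned within the range for miR-125a-5p (-0.040 to 0.48), miR-193b-3p (-0.14 to 0.50), miR-27a-3p (-0.28 to 0.038), miR-29b-3p (-0.036 to 0.23), miR-29c-3p (-0.26 to 0.23), miR-301a-3p (-0.20 to 0.46), miR-31-5p (-0.019 to 0.35) and miR-365-3p (-0.082 to 0.29).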

Other observations

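Other families gave smaller cytoplasmic differences between 2 h and 24 h. Of 17 measured miRNAs from the Sfmbt2 intron, a rodent cluster of closely similar hairpins, 15 were positive and 12 did not overlap in that direction, beside 30.6% of all miRNAs, with a median log2 difference of 0.35. limma called 0 of them, as did limma-voom, and 5 had an unadjusted p under 0.05. The share of all miRNAs at that unadjusted cutoff was not counted, so the 5 is not read as a result. At an adjusted p under 0.05 in limma there were 2 of the 17, beside 79 of all 350 miRNAs. miR-669c-5p was nearest to a call, with 796 and 1101 at 2 h and 2058 and 1696 at 24 h (1.00, SE 0.20, adjusted p 7.9e-04). Reads of these similar sequences may be split among members.

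In the miR-30 family 10 miRNAs were measured. miR-30b-5p had 362 and 326 at 2 h and 485 and 562 at 24 h (0.60, adjusted p 0.028), and miR-30b-3p 254 and 204 and then 144 and 141 (-0.67, adjusted p 0.028), without overlap in either arm. The ratio of these arms was not called (adjusted p 0.012 in limma), nor was that of miR-30a (0.91), miR-30c (0.047), miR-30d (0.33) or miR-30e (0.19). limma and limma-voom called 0 of the family, and 6 had an unadjusted p under 0.05. At an adjusted p under 0.05 in limma there were 5 of the 10, beside 79 of all 350 miRNAs. In the imprinted Dlk1-Dio3 cluster the 38 measured miRNAs had a median of 0.06, with 0 called by limma and by limma-voom. Of the 38, 9 had an unadjusted p under 0.05 and 2 an adjusted p under 0.05. The share of all miRNAs at the unadjusted cutoff was not counted, so the 6 and the 9 are not read as results. Among smooth muscle and fibroblast miRNAs, miR-145a-3p went from 5409 and 5362 to 3066 and 2756 (-0.89, SE 0.18, adjusted p 7.1e-04), short of 2-fold.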
